A study of Mus musculus with 6 samples.

Results

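The array row named Klra1 comprised 41 exon-level probe sets out of 241576 in the deposited value table. It was found as the row of the authors' deposited table whose gene symbol is Klra1, and its probe sets are those that follow the row's ID number without a break. A probe set is a small group of probes for 1 stretch of transcript, and its value is a log2 signal. The probe sets are given below by position, counted from 1 in the order of their IDs. The gene is 1 of 21442 named genes on the array. The row was chosen by the measured differences of its probe sets between the 2 cell subsets, which had been seen to diverge, so all values of that contrast in the row are a description and carry no test.

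The samples were natural killer (NK) cells from spleens of C57BL/6 mice (the strain field writes C57BL/5). All spleen cells were stripped of T cells with an antibody to Thy1.2 and complement, and cultured with 1000 IU of IL-2 over 7 days. Cells without CD3 and with CD122 were then sorted into 2 subsets. Ly49C/I+ cells carried Ly49C or Ly49I and lacked Ly49G2 (3 arrays), and Ly49G2+ cells carried Ly49G2 and lacked Ly49C and Ly49I (3 arrays). The labels name no separate mice or cultures, so spreads and p-values measure only the differences between these samples, which may be technical. Per the labels, the sort did not gate on Ly49A. For Ly49G2+ replicate 1, title and description give Ly49G while the source field reads Ly49C/I+, and the title was followed.

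Klra1 encodes Ly49A, an inhibitory lectin receptor of mouse NK cells. Ly49 receptors are paired chains on the cell surface that read MHC class I molecules of other cells, and the inhibitory ones pass on a brake through a tyrosine motif in their tail. Single NK cells express some Ly49 genes and not others, in overlapping combinations. The genes lie side by side on chromosome 6 and arose by duplication, so parts of their sequences are nearly the same. In bulk samples, fewer cells with a transcript and less transcript per cell cannot be told apart.

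Along the Klra1 row, 1 block of neighbouring probe sets was far lower in Ly49C/I+ than in Ly49G2+ cells, and the rest of the row held smaller differences in both directions. Positions 11 to 19 were picked as the longest run of probe sets higher on every Ly49G2+ array. There the signal averaged 7.45 ± 0.25 in Ly49C/I+ cells, against 11.43 ± 0.098 in Ly49G2+ cells (log2 signal, SD, n = 3 each). The other 32 probe sets averaged 8.33 ± 0.036 in Ly49C/I+ cells, against 8.13 ± 0.11 in Ly49G2+ cells, a mean over probe sets that went both ways. Of these 32, 10 were higher on every Ly49C/I+ array, led by position 39 with a difference of 2.11. Another 4 were higher on every Ly49G2+ array and 18 overlapped. Over all probe sets of the value table, 10.3% were higher on every Ly49C/I+ array and 8.46% on every Ly49G2+ array. Positions 11 and 19 had Ly49C/I+ means below the lower quartile of all probe sets, and enter every mean and SD as measured. The row therefore had no single direction, and its average depended on how the probe sets were combined.

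**Figure D1:**
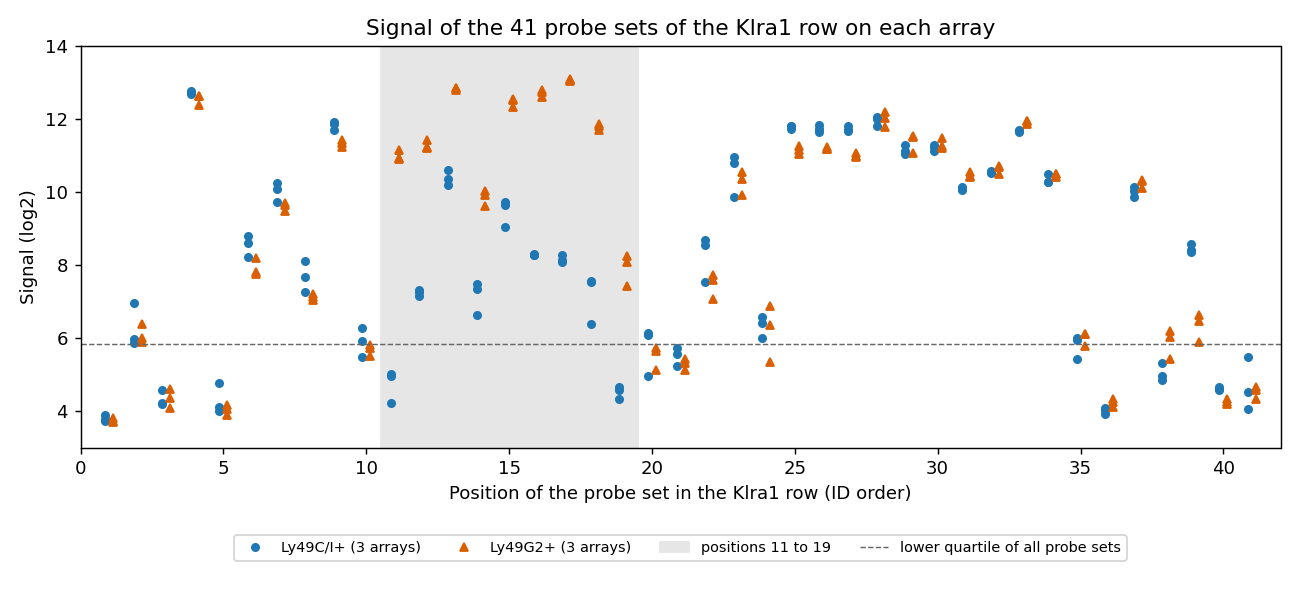
Log2 signal (vertical axis) of each of the 41 probe sets of the Klra1 row in ID order (horizontal axis), with 1 point per array, circles for Ly49C/I+ and triangles for Ly49G2+ cells. The dashed line is the lower quartile of all probe sets at 5.83, and the grey band marks positions 11 to 19, where all Ly49C/I+ points lie below all Ly49G2+ points by at least 2.13.

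The name of the row and its place on the array did not match. The row carries the accession NM_016659 and band 6F3, and RefSeq gives this accession to Klra1. By ID number the row stands between the rows of Klra5 and Klra6, the genes of Ly49E and Ly49F. In the RefSeq gene order of assembly GRCm38.p6, Klra1 lies between Klra3 and Klra2 instead. IDs follow the genome elsewhere, since 98.5% of 19183 neighbouring rows matched to 1 chromosome were in RefSeq order. Among the 11 Ly49 rows, Klra11 and the second of 2 Klra9 rows also stood out of order. The row's 41 probe sets compare with 1 to 12 in the other Ly49 rows. No probe sequence was used, and the values below belong to probe sets of the row named Klra1 and cannot be assigned to the gene Klra1 rather than another Ly49 gene. Klra4 and Klra7 were not analysed here. Klra7 is the gene of Ly49G2, the receptor by which the Ly49G2+ cells were sorted.

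How close Ly49 genes can be is shown by the stretches around their start sites (250 bases before to 50 after, RefSeq, GRCm38.p6, minus strand). The windows are those of Klra1 at chr6:130386825-130387124, Klra3 (Ly49C) at chr6:130337577-130337876 and Klra9 (Ly49I) at chr6:130193063-130193362. Capitals mark the longest run of bases that Klra3 and Klra9 share, 75 in all.
Klra1: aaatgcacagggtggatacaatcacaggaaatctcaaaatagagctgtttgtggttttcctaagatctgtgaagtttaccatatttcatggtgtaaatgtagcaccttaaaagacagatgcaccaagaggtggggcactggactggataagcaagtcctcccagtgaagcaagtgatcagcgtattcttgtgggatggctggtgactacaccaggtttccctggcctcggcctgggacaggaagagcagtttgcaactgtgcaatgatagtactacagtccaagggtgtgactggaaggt
Klra3: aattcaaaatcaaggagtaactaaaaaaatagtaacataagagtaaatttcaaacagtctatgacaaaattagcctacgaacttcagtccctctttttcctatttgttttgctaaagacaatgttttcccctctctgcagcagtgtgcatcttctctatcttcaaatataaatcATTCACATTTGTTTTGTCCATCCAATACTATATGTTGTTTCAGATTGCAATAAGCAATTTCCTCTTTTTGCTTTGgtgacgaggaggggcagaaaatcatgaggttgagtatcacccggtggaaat
Klra9: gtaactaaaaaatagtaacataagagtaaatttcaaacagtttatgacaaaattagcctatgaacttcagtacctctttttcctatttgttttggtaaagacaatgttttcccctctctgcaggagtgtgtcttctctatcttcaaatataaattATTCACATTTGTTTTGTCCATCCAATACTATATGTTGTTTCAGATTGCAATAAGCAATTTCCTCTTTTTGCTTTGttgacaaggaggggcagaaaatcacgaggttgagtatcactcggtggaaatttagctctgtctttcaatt
The longest run that Klra1 shared with any of 8 other Ly49 windows was 8 bases. These windows are not the probes of the array and describe only the annotated starts.

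Of the 41 probe sets, 10 were higher on every Ly49C/I+ array, 13 were higher on every Ly49G2+ array and 18 overlapped. Over all probe sets of the value table, 10.3% were higher on every Ly49C/I+ array and 8.46% on every Ly49G2+ array. A difference of 2-fold or more toward Ly49C/I+ cells was seen at 1 probe set of the row (0.212% of all probe sets). The same size toward Ly49G2+ cells was seen at 9 (0.217% of all probe sets). The contrast was used to choose the row, so nothing is read from these counts against their background. The median difference was -0.02 over the row and 0.00 over all probe sets (log2, Ly49C/I+ minus Ly49G2+). The median within-subset SD was 0.14 in the row and 0.14 over all probe sets, so the replicates of the row's probe sets spread about as much as those of other probe sets.

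The sign of the difference ran in blocks along the row. It was positive at positions 1 and 2, -0.02 at position 3, positive at all 7 of positions 4 to 10 and negative at all 9 of positions 11 to 19. It was positive at all 8 of positions 20 to 27, negative at all 11 of positions 28 to 38 and positive at positions 39 to 41. The subsets overlapped at 5 of positions 20 to 27 and at 7 of positions 28 to 38, so the sign there often rests on small differences. Only positions 11 to 19 and position 39 reached 2-fold.

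**Figure D2:**
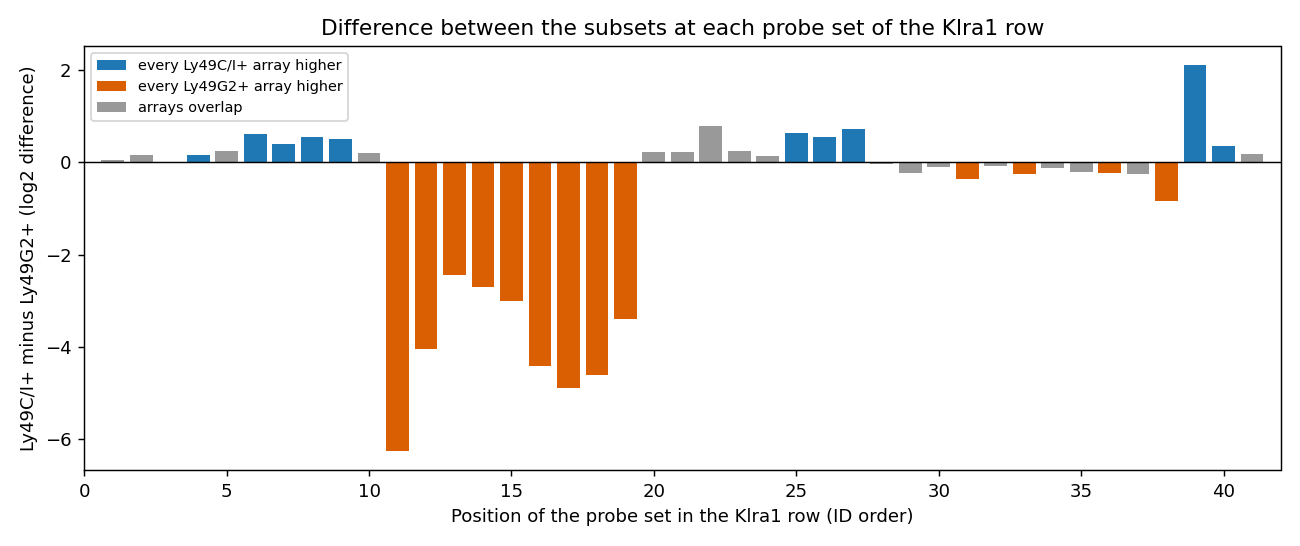
Difference of the subset means at each probe set of the Klra1 row (vertical axis, log2, Ly49C/I+ minus Ly49G2+) against its position in ID order (horizontal axis). Bars are coloured by whether every Ly49C/I+ array was higher (10 probe sets), every Ly49G2+ array was higher (13) or the arrays overlapped (18), and the bars from 11 to 19 all reach -2.44 or below, those at 11 and 19 with a Ly49C/I+ mean below the lower quartile of all probe sets.

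The first block, positions 1 to 10, mixed bright and dim probe sets. Position 4, the brightest probe set of the row in Ly49C/I+ cells, had 12.73, 12.76 and 12.68 in Ly49C/I+ cells, against 12.64, 12.39 and 12.63 in Ly49G2+ cells. The lowest Ly49C/I+ array lay only 0.04 above the highest Ly49G2+ array. Position 9 had 11.87, 11.91 and 11.71 in Ly49C/I+ cells, against 11.33, 11.42 and 11.24 in Ly49G2+ cells, a difference of 0.50. Its subsets were separated by 0.29, the widest gap of the block. Positions 6, 7 and 8 were also higher on every Ly49C/I+ array, with differences of 0.62, 0.41 and 0.56 and gaps of 0.05, 0.03 and 0.05. Positions 1, 3 and 5 lay below the lower quartile of all probe sets (5.83) in both subsets, where a difference says little. Position 10, next to the divergent block, had 5.48, 5.92 and 6.27 in Ly49C/I+ cells, against 5.50, 5.74 and 5.80 in Ly49G2+ cells, and the subsets overlapped. Its Ly49G2+ mean of 5.68 was below that quartile, so this overlap says little too.

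At position 11 the picture turned between neighbouring probe sets. It had 4.21, 4.95 and 5.01 in Ly49C/I+ cells, against 11.14, 10.94 and 10.89 in Ly49G2+ cells. The Ly49C/I+ values were below the lower quartile of the arrays, so no fold is given, and the 3 Ly49G2+ arrays were all at least 5.88 higher. Position 12 had 7.14, 7.31 and 7.26 in Ly49C/I+ cells, against 11.22, 11.42 and 11.20 in Ly49G2+ cells, a difference of -4.04. Position 13 had 10.35, 10.18 and 10.61 in Ly49C/I+ cells, against 12.84, 12.79 and 12.84 in Ly49G2+ cells, a difference of -2.44. Position 13 was the brightest of the block in Ly49C/I+ cells and had its smallest difference. Position 14 had 6.62, 7.49 and 7.33 in Ly49C/I+ cells, against 9.91, 9.62 and 10.04 in Ly49G2+ cells, a difference of -2.71. Position 15 had 9.03, 9.63 and 9.72 in Ly49C/I+ cells, against 12.54, 12.34 and 12.51 in Ly49G2+ cells, a difference of -3.00. At both, the 3 Ly49G2+ arrays lay more than 2 log2 units above the highest Ly49C/I+ array, with gaps of 2.13 and 2.62.

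The second part of the block held the widest separations among probe sets with signal in both subsets. Position 16 had 8.29, 8.28 and 8.28 in Ly49C/I+ cells, against 12.75, 12.61 and 12.78 in Ly49G2+ cells, a difference of -4.43. Position 17 had 8.14, 8.27 and 8.09 in Ly49C/I+ cells, against 13.08, 13.04 and 13.10 in Ly49G2+ cells, a difference of -4.91. Position 17 was the brightest probe set of the whole row in Ly49G2+ cells, at a level 30.0-fold that of Ly49C/I+ cells. Position 18 had 6.39, 7.53 and 7.57 in Ly49C/I+ cells, against 11.85, 11.71 and 11.81 in Ly49G2+ cells, a difference of -4.63. Position 19 had 4.32, 4.57 and 4.65 in Ly49C/I+ cells, against 8.09, 7.42 and 8.24 in Ly49G2+ cells. Position 19 was below the lower quartile in Ly49C/I+ cells, as was position 11 at the other end of the block. Ly49C/I+ replicate 1 was the lowest of its subset at 6 of the 9 positions, and Ly49G2+ replicate 2 at 7 of 9.

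Just past the block, position 20 had 4.97, 6.14 and 6.08 in Ly49C/I+ cells, against 5.74, 5.12 and 5.65 in Ly49G2+ cells, and the subsets overlapped. The means of positions 20 and 21 lay below the lower quartile of all probe sets in both subsets, so overlap there says little. Overlap continued to position 24, with differences of 0.14 to 0.80. Positions 25, 26 and 27 were bright and higher on every Ly49C/I+ array. Position 25 had 11.81, 11.80 and 11.73 in Ly49C/I+ cells, against 11.14, 11.03 and 11.25 in Ly49G2+ cells. Position 26 had 11.65, 11.72 and 11.84 in Ly49C/I+ cells, against 11.23, 11.18 and 11.17 in Ly49G2+ cells. Position 27 had 11.71, 11.80 and 11.67 in Ly49C/I+ cells, against 10.95, 11.06 and 10.99 in Ly49G2+ cells. The differences were 0.64, 0.54 and 0.73, and the subsets were separated by 0.42 or more at each of them.

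Positions 28 to 38 all differed toward Ly49G2+ cells, by less than 2-fold each. They averaged 9.26 ± 0.085 in Ly49C/I+ cells, against 9.50 ± 0.12 in Ly49G2+ cells (SD, n = 3 each), with differences of -0.85 to -0.03. Of these 11 probe sets, 7 overlapped and 4 were higher on every Ly49G2+ array. Position 33 had 11.66, 11.70 and 11.63 in Ly49C/I+ cells, against 11.94, 11.95 and 11.85 in Ly49G2+ cells, and position 31 differed by -0.36. Position 38, with the widest difference of the 4, had 4.95, 5.31 and 4.84 in Ly49C/I+ cells, against 6.02, 5.42 and 6.20 in Ly49G2+ cells. Its Ly49C/I+ mean of 5.03 was below the lower quartile, and position 36 was below it in both subsets.

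Position 39 went the other way. It had 8.40, 8.57 and 8.36 in Ly49C/I+ cells, against 6.62, 5.89 and 6.48 in Ly49G2+ cells, a difference of 2.11 and a level 4.33-fold that of Ly49G2+ cells. All Ly49C/I+ arrays lay at least 1.74 above the Ly49G2+ arrays. Position 40 was also higher on every Ly49C/I+ array but lay below the lower quartile in both subsets, as did position 41, where the subsets overlapped. In all, 8 of the 41 probe sets lay below that quartile in both subsets.

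A single value for the row depended on the way its probe sets were joined. Their mean on each array was 8.04, 8.18 and 8.19 in Ly49C/I+ cells, against 8.95, 8.74 and 8.88 in Ly49G2+ cells, a difference of -0.72. Their median was 8.29, 8.27 and 8.10 in Ly49C/I+ cells, against 10.34, 10.12 and 10.04 in Ly49G2+ cells, a difference of -1.95. A median polish, which fits probe set and array effects by medians, gave 9.06, 9.19 and 9.22 in Ly49C/I+ cells, against 9.34, 9.18 and 9.24 in Ly49G2+ cells. Under the median polish the subsets overlapped and the difference was -0.10. The authors' deposited table gives the row means of 10.18 for Ly49C/I+ cells and 10.30 for Ly49G2+ cells, with a log2 difference of -0.12 and a ratio of 0.920. The level in Ly49G2+ cells was thus 1.64-fold that in Ly49C/I+ cells by the mean, 3.85-fold by the median and 1.07-fold by the median polish of the same 41 probe sets.

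**Figure D3:**
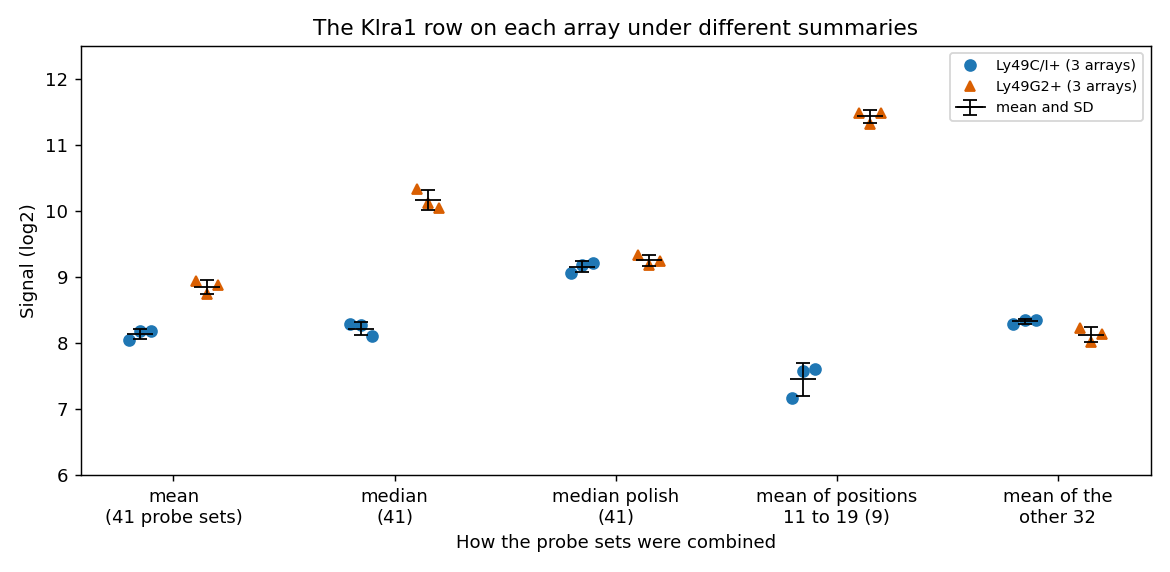
Log2 signal of the Klra1 row (vertical axis) under 5 ways of combining its probe sets (horizontal axis), with 1 point per array, circles for Ly49C/I+ and triangles for Ly49G2+ cells, and bars for the mean and SD of 3 arrays. The subsets differ by -0.72 with the mean, -1.95 with the median and -0.10 with the median polish, and by -3.98 at positions 11 to 19 alone.

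The probe sets of the Klra1 row disagreed with each other more than those of any other named row of at least 10 probe sets, when measured by the SD. The SD of the log2 differences was 1.89 over the row, the highest among 8847 named rows of at least 10 probe sets. The median row had an SD of 0.20 and the 99th percentile of rows was 0.41. The next row was Klra9 with 1.18. Klra10, whose 6 probe sets kept it out of that comparison, had an SD of 1.74. Without positions 11 to 19 the SD of the Klra1 row was 0.50. By the median absolute deviation, which a minority of probe sets moves little, the row ranked 11 of the same rows. The row was chosen because its probe sets diverged in this contrast. Its ranks were therefore favoured by that choice and are no test.

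**Figure D4:**
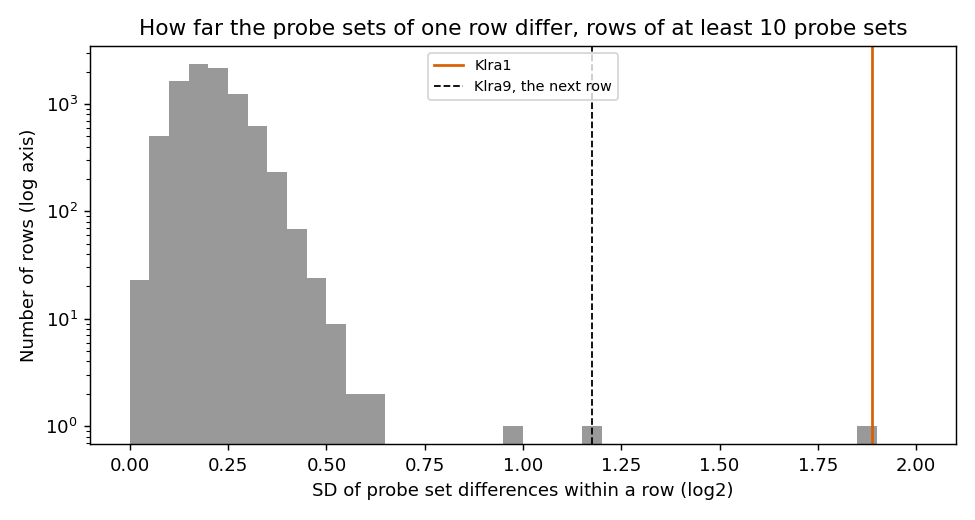
Number of named rows (vertical axis, log scale) by the SD of the log2 differences among their probe sets (horizontal axis), for 8847 rows of at least 10 probe sets. The Klra1 row lies at 1.89, apart from the median of 0.20 and from the next row, Klra9, at 1.18. The row was chosen for this divergence, so its place is no test.

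No probe set of the other Ly49 rows measured differed as far toward Ly49G2+ cells as positions 11 to 19. Klra7, the gene of the receptor by which the Ly49G2+ cells were sorted, is not among these rows. The 10 other Ly49 rows held 63 probe sets. Of these, 32 were higher on every Ly49C/I+ array (10.3% of all probe sets), 7 on every Ly49G2+ array (8.46% of all probe sets) and 24 overlapped. A difference of 2-fold or more was seen toward Ly49C/I+ cells at 20 of the 63 (0.212% of all probe sets). Toward Ly49G2+ cells it was seen at 0 of the 63 (0.217% of all probe sets), so that 0 lies near the share over all probe sets and says little. The widest toward Ly49G2+ cells was at Klra2, at 7.74 on average in Ly49C/I+ cells, against 8.68 in Ly49G2+ cells. The 11 probe sets of the larger Klra9 row were all higher in Ly49C/I+ cells, by 0.60 to 4.74. The 6 of Klra10 were as well, by 0.46 to 4.74. Their differences spread widely but kept 1 sign. The row of Klra1 had differences of 2-fold or more in both directions, though toward Ly49C/I+ cells only at position 39. Smaller sets of both signs were seen in the rows of Klra6 (-0.22 to 1.66), Klra2 (-0.94 to 0.29) and Klra17 (-0.37 to 0.28). In no case did a Klra1 probe set hold the same values on all 6 arrays as a probe set of another Ly49 row. Exact equality would find only duplicated probe sets, not similar ones. For positions 11 to 19, the closest probe set of another Ly49 row lay at a root mean square distance of 0.94 to 2.69 log2 units over the 6 arrays. These positions were picked by the contrast, so their distance from the other rows is no test. Whether the probe sets share sequence with other Ly49 genes was not tested.

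**Figure D5:**
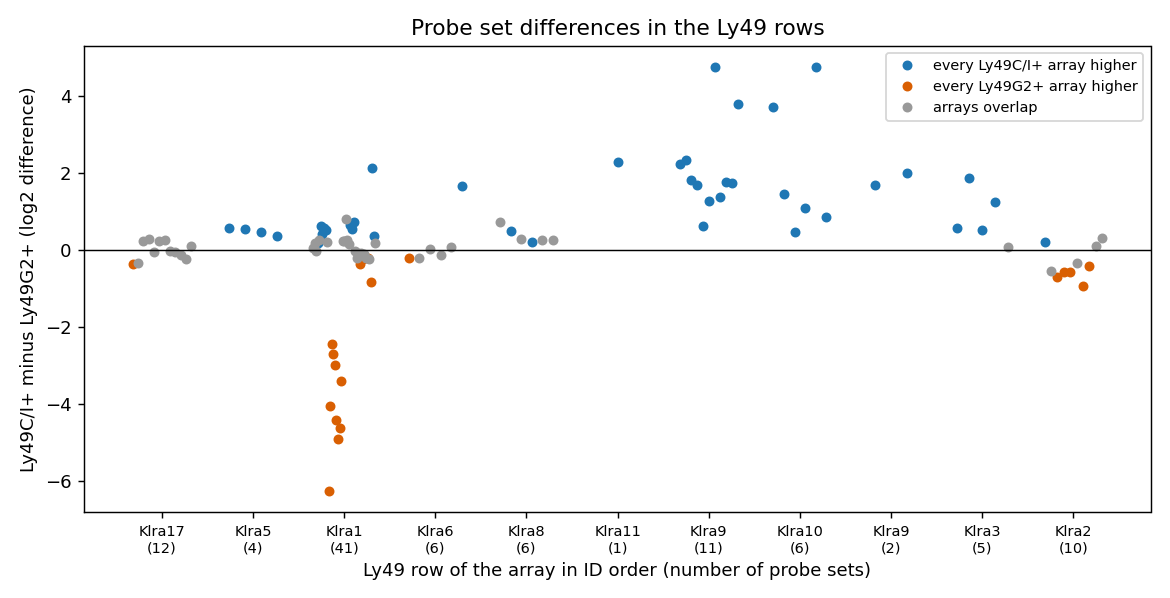
Log2 difference of the subset means (vertical axis, Ly49C/I+ minus Ly49G2+) of each probe set in the 11 Ly49 rows, placed in ID order (horizontal axis, with the number of probe sets). Points are coloured by whether every Ly49C/I+ array was higher, every Ly49G2+ array was higher or the arrays overlapped, and 9 points of Klra1 lie at -2.44 or below, while the lowest point of the other rows, in Klra2, lies at -0.94. Klra7, the gene of Ly49G2, is not among the rows.

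As genes, 9 other members of the Ly49 list were tested with limma in a fit across 21442 genes, of which 6.16% rose toward Ly49C/I+ cells and 3.72% toward Ly49G2+ cells at an adjusted p under 0.05. Of the 9, 5 were higher in Ly49C/I+ cells, 1 was higher in Ly49G2+ cells and 3 did not pass, with a median log2 difference of 0.48 against -0.01 over all genes. Klra9 and Klra3 encode the receptors the sort selected, so their direction follows from it, and Klra9, Klra10 and Klra3 are near copies whose signals cannot be fully separated. Klra9 (1.98), Klra10 (2.05), Klra11 (2.27), Klra3 (0.85) and Klra5 (0.48) were the 5, and Klra6, Klra8 and Klra17 had differences of 0.20, 0.37 and -0.01, the last of which turned positive in 4 of 12 alternative analyses. Without Ly49C/I+ replicate 1, Klra8 and Klra6 passed by limma (adjusted p = 0.0162 and 0.0454) and the count toward Ly49C/I+ cells was 7. Without Ly49G2+ replicate 1, Klra8 passed (adjusted p = 0.0372) and the count was 6. Klra2, the gene of Ly49B, was higher in Ly49G2+ cells by limma (log2 difference -0.35 ± 0.090, SE, adjusted p = 0.0351). This call was lost without Ly49C/I+ replicates 1, 2 or 3 (adjusted p = 0.113, 0.0598 and 0.134) and without Ly49G2+ replicates 1 or 3 (adjusted p = 0.101 and 0.0964). It was also lost with the median over probe sets (adjusted p = 0.0715) and with the replicate block (adjusted p = 0.0646).

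Genes with the pattern most like the Klra1 row were found by Pearson correlation over the 6 arrays, among 38 genes whose values ranged over at least 1 log2 unit. The 6 arrays form 2 clusters by subset, so that r mostly reflects the subsets. For the row mean they were Klk1b11, a kallikrein protease, Crisp1, a secreted cysteine-rich protein, Ctsg, the granule protease cathepsin G, Trgv2, a T cell receptor gamma segment, and Dsc2, a desmosomal cadherin, with r of 0.986 to 0.995. For the mean of positions 11 to 19 they were Trgv2, Cd3e, Klk1b11, Ctsg and Cd3d, with r of 0.993 to 0.997. All of these were lower in Ly49C/I+ cells, which follows from picking them by their likeness to values that were lower there. Cd3e had 8.34 in Ly49C/I+ cells, against 10.57 in Ly49G2+ cells. None of them differed as far as the mean of positions 11 to 19, but those positions were picked by the contrast. The values of these genes are means over all their probe sets. On that footing the Klra1 row differed by -0.72, less far than any of them (Crisp1, the nearest, by -0.75).

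Some markers of T cells moved in the same direction as positions 11 to 19, although the sort had kept only cells without CD3. Of 17 T cell markers, limma found 4 lower in Ly49C/I+ cells (Cd3d, Cd3e, Cd3g and Cd8a), 1 higher (Ubash3a, a regulator of T cell receptor signalling) and 12 that did not pass. Over all genes 6.16% passed toward Ly49C/I+ cells and 3.72% toward Ly49G2+ cells, and the marker counts below stand beside the same shares. Their summed linear signal was 12207 to 12579 on the Ly49C/I+ arrays, against 15002 to 15438 on the Ly49G2+ arrays. Among the defining markers, Cd3e, Cd3d and Cd3g lay above the lower quartile in both subsets, while Trat1, Cd40lg and Themis lay below it in both. Arrays have no true 0, so none is at 0. Of 13 NK cell markers, 1 was higher in Ly49C/I+ cells (Klrk1) and 0 in Ly49G2+ cells by limma (3 and 0 at an unadjusted p under 0.05). All 13 lay above the lower quartile in both subsets, the lowest (Itga2) at 9.20 in Ly49C/I+ cells, against 9.03 in Ly49G2+ cells. Of 6 B cell markers 0 passed in either direction by limma, with 0 toward Ly49C/I+ cells and 1 toward Ly49G2+ cells at an unadjusted p under 0.05, and of 6 myeloid markers 1 (Cd14) was higher in Ly49G2+ cells. The part of other cells in the values of the Klra1 row was not tested.

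With any 1 array left out, the mean difference at positions 11 to 19 stayed between -4.06 and -3.84, and that of the other 32 probe sets between 0.14 and 0.25. The block was set by this contrast on all 6 arrays and was not redrawn, so its steadiness was favoured by the choice and is no test. Without Ly49G2+ replicate 1, whose source label differs from its title, the mean differences of the block and of the other 32 were -3.95 and 0.25. The mean of that array at positions 11 to 19 was 11.49, beside 11.32 and 11.49 for Ly49G2+ replicates 2 and 3. These positions were picked because every Ly49G2+ array, this one included, was higher there. The value therefore cannot settle which label of the array is right.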

How the data were processed

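Per the labels, 100 ng of RNA per sample was amplified and labelled with biotin by an Affymetrix kit for microarrays. The submitters' processing notes name Partek and RMA, with versions, settings and genome build not given in the sources used here. The authors deposited log2 values of exon-level probe sets for each array. Per the file headers, the authors' deposited table holds, for 35556 rows, group means on the log2 scale, a ratio of Ly49C/I+ over Ly49G2+, the same ratio as a signed score and p-values of an ANOVA. Its p-values and signed score were not used here.

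Probe sets were joined to rows by ID number (241383 joined, 193 not), and differences of row means correlated with the deposited ones at r = 0.977 across rows, which are not independent. Symbols were updated through RefSeq accessions (GRCm38.p6, 21023 rows matched, 1926 symbols changed). Differences are Ly49C/I+ minus Ly49G2+. Log2 values were averaged per row and per gene and tested with limma 3.58.1 in R 4.3.3, two-sided, with Benjamini-Hochberg adjustment over 21442 genes and a threshold of 0.05, and the test was checked on simulated data. Python 3.11.15, pandas 2.3.3, numpy 2.4.6 and matplotlib 3.10.9 were used for joins and figures. Array medians lay between 7.73 and 7.75. Arrays give no depth, and 3 per subset limit the precision.

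The row, the lists and the tests were chosen with earlier results of these data known. Genes named are Klra1, the measured Ly49 list, passing T cell markers and the 5 genes most like the row mean and the block; a few other markers were named after their values were seen. Alternatives were repeated quantile normalization, median centring, a filter at the lower quartile, other summaries of probe sets, the replicate block, trend with robust moderation, and each array left out.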

Additional observations from a re-analysis of the deposited data

How the results depend on the processing

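The mean difference of the Klra1 row was -0.72, and -0.96 with only probe sets at or above the lower quartile, -1.95 with the median over probe sets, -0.10 with the median polish and -0.12 in the authors' deposited table. With 1 array left out it ran from -0.77 to -0.67. Counts of Klra1 probe sets without overlap, with 1 array left out, ran from 10 to 13 toward Ly49C/I+ and from 13 to 17 toward Ly49G2+ cells. With 1 array left out the SD of differences in the row ran from 1.84 to 1.92.

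Genes passing across the array numbered 1321 higher in Ly49C/I+ and 797 higher in Ly49G2+ cells, 460 and 219 with the median over probe sets, 981 and 495 with the replicate block, and 859 to 1112 and 410 to 765 with 1 array left out. Of the other Ly49 genes, the 1 higher in Ly49G2+ cells was lost by limma (0, with 1 at an unadjusted p under 0.05) with the median over probe sets and with the replicate block, and with 1 array left out the count was 0 to 1. The 5 higher in Ly49C/I+ cells became 5 to 7 with 1 array left out. Klra17 never passed. Its difference turned to 0.10 when probe sets were joined by the median, and ran from -0.067 to 0.057 with 1 array left out. The cause of these shifts was not tested. Whether replicate numbers pair the samples is not known. Deviations of same-numbered arrays correlated at -0.08, -0.19 and -0.05 across genes, and those of differently numbered arrays at -0.14 to 0.19. Deviations from a mean of 3 arrays are tied to each other, so these values cannot decide it. The replicate block changed no other count by over 1.5 times. Signal near background limits the 8 probe sets of the row below the lower quartile in both subsets.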
